A study of Mus musculus with 16 samples.

Results

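The genes described here encode the subunits of the mitochondrial respiratory chain and its ATP synthase, with the assembly factors that share their names. Members were all probe sets (groups of short probes for 1 transcript) whose single platform gene symbol begins with Nduf, Sdh, Uqcr, Cox4, Cox5, Cox6, Cox7, Cox8 or Atp5. This gave 185 of 45101 probe sets, which stand for 94 of 18193 genes: 34 of complex I, 4 of complex II, 8 of complex III, 19 of complex IV, 17 of the ATP synthase and 12 assembly factors. Each gene was read from its probe set of highest mean, and 92 members passed the filter on low signals that left 12735 genes. Ndufb4 and Cox7b2 lay under it. Another 10 probe sets name a member together with other symbols and were left out.

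The bone was the last 5 mm of the left femur at its distal end, from 16 female C57BL/6 mice, all ovariectomized, with 1 array per mouse and no pooling of RNA. The 4 groups of 4 mice were wild type with vehicle (WT-OVX), wild type with estrogen (WT-E2-4hr), osteoclast-specific estrogen receptor alpha knockout with vehicle (ERaKO-OVX) and the same knockout with estrogen (ERaKO-E2-4hr), taken 4 hours after treatment. The vehicle of ERaKO-OVX is named in the series design text and not in its labels, and no source used here gives the Cre driver, the age of the mice, or which estrogen was used and how much. The sample is whole bone with its marrow and whatever tissue stayed attached, so fewer cells of a type and less RNA per cell cannot be told apart. The mice of each group are numbered, and earlier results of these data had shown that numbers 1 and 2 (the first replicate set) differ from numbers 3 and 4 (the second replicate set) in every group. The labels do not say what the numbers stand for.

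Respiratory chain complexes sit in the inner mitochondrial membrane and pass electrons from NADH (complex I) or succinate (complex II) by way of complex III to oxygen at complex IV, pumping protons that drive the ATP synthase. Their subunits are made in nearly every cell, and skeletal muscle, heart and brown fat hold large amounts of them. Complex IV has a few nuclear-encoded subunits in tissue forms: Cox6a2, Cox7a1 and Cox8b are the forms of skeletal and heart muscle, the last ones also of brown fat, while Cox6a1, Cox7a2 and Cox8a are found in most other tissues. Osteoclasts, which resorb bone, are rich in mitochondria.

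The promoters of Cox7a1, Cox8b and the 3 common partners are shown because the muscle-type genes separate from these partners in the results below; Cox6a2 is named only. Each is the RefSeq sequence of the 250 bases before the gene's start (GRCm38.p6), written 5′ to 3′ on the gene's strand, with matches to the searched motifs in capitals. The places are chr7:30183921-30184170 on the plus strand for Cox7a1 and chr7:140900447-140900696 on the minus strand for Cox8b. Those of the common partners are chr5:115348959-115349208 for Cox6a1, chr9:79759854-79760103 for Cox7a2 and chr19:7217617-7217866 for Cox8a, all on the minus strand.
Cox7a1: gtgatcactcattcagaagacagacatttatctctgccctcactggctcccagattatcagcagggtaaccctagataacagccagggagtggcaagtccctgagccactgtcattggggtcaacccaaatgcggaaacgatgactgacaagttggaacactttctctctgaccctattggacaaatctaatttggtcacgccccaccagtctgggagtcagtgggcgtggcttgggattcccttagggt
Cox8b: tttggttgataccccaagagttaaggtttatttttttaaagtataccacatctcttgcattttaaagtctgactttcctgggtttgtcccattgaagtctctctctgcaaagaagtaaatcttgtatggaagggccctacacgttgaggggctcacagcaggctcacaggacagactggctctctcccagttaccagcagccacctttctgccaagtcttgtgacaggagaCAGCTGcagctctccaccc
Cox6a1: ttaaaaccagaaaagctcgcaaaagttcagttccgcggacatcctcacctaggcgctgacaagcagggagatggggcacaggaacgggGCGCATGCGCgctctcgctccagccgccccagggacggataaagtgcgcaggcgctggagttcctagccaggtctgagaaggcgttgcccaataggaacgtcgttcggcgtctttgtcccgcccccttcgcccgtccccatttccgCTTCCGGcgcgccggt
Cox7a2: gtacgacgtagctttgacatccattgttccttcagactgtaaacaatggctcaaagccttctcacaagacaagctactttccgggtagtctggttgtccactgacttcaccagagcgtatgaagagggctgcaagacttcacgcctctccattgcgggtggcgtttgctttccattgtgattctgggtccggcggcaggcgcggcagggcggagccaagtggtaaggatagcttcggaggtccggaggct
Cox8a: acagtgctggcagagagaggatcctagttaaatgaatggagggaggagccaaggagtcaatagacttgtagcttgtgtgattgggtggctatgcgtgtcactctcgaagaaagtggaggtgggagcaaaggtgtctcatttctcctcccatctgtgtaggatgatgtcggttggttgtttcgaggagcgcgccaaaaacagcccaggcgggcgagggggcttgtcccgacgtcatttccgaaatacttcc
The motifs, read on both strands, were CAGCTG (an E-box form bound by muscle regulators), AAGGTCA (a site of the estrogen-related receptors), CCGGAAG (an ETS site), GCGCATG (part of the NRF1 site) and the MEF2 consensus. The Cox8b window held 1 CAGCTG, 19 to 14 bases before the start. The Cox6a1 window held CCGGAAG 16 to 10 bases before the start and a pair of overlapping GCGCATG matches on opposite strands. The windows of Cox7a1, Cox7a2 and Cox8a held none of these letters. Over the 78 members with a window, CCGGAAG was present in 16 (20.5%, against 14.6% of the 10234 tested genes with a window and 7.83% of all 27025 promoters) and GCGCATG in 10 (12.8%, against 6.16% and 3.68%). CAGCTG was present in 6 members (7.69%, against 14.3% and 14.7%), AAGGTCA in 5 (6.41%, against 3.61% and 4.70%) and the MEF2 consensus in 0 (against 2.16% and 3.42%). These matches are descriptions of the letters and not binding sites.

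Array signals were scaled by the authors to a 2% trimmed mean of 500, and the median signal ran from 153 to 217. Differences (± SE) are of log2(signal + 16), and adjusted p-values are from limma, over all 12735 genes. Esr1, the targeted gene, had a mean signal of 945 ± 138 (SD, n = 4) in WT-OVX, 507 ± 106 in WT-E2-4hr, 637 ± 60.9 in ERaKO-OVX and 540 ± 149 in ERaKO-E2-4hr. The difference of knockout from wild type was -0.55 ± 0.19 (limma adjusted p = 0.95, unadjusted 0.00966) under vehicle and 0.07 ± 0.19 under estrogen. In whole bone an osteoclast-specific deletion is diluted by other cells, so this is a weak check of the labels.

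The largest differences among the members lay between the replicate sets, and they were those of the muscle-type subunits. Cox8b, which sits in complex IV in place of Cox8a, had signals of 6962, 12522, 115 and 114 in WT-OVX replicates 1 to 4. In WT-E2-4hr it had 1898, 4466, 176 and 22.7. In ERaKO-OVX the signals were 1142, 1142, 127 and 10.6, and in ERaKO-E2-4hr 15476, 2090, 56.5 and 50.7. In each group replicates 1 and 2 were high and replicates 3 and 4 low, with no overlap. The difference of the second set from the first was -5.46 ± 0.46 (adjusted p = 8.9e-07).

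Cox6a2, the muscle form of subunit VIa, ran from 1656 to 17590 in the first set (median 4254, n = 8) and from 273 to 673 in the second (median 510, n = 8). Its difference was -3.15 ± 0.37 (adjusted p = 2.3e-05). Cox7a1, the muscle form of subunit VIIa, ran from 452 to 5463 (median 1073) and from 64.3 to 192 (median 88.3), a difference of -3.55 ± 0.38 (adjusted p = 8.9e-06). Neither gene's sets overlapped. The second-set median of Cox7a1 and several second-set signals of Cox8b lay below the filter level of about 109. Both genes thus owed their place among the tested genes largely to the first set, which limits what their p-values and lack of overlap can show. For all 3 muscle-type genes the highest array was replicate 1 of ERaKO-E2-4hr, followed by replicate 2 of WT-OVX, and the lowest arrays of the first set were replicates 1 and 2 of ERaKO-OVX.

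The common partners moved far less than the muscle-type forms. Cox6a1 ran from 18782 to 31255 in the first set and from 14984 to 19972 in the second, a difference of -0.42 ± 0.13 (adjusted p = 0.035) that changed to 0.02 (adjusted p = 0.89) after quantile normalization. Cox7a2 ran from 14937 to 40335 and from 12270 to 18851 (-0.60 ± 0.18, adjusted p = 0.027), and this call was lost after quantile normalization. Both calls were also lost with the mean of a gene's probe sets, within each genotype, and without 3 arrays of raised spike-in signal (named below). Leaving out 1 array lost the Cox6a1 call in 9 of 16 fits and the Cox7a2 call in 5. With no filter the Cox6a1 call was lost as well. Cox8a ran the other way, from 2506 to 4986 in the first set and from 3902 to 5528 in the second, a difference of 0.36 ± 0.12 (adjusted p = 0.053) that passed as higher after quantile normalization (0.44, adjusted p = 0.011). All 3 partners overlapped between the sets.

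The difference between the muscle-type and the common form of a pair was tested directly, with the set labels permuted within each group (1296 arrangements, exact two-sided p, smallest possible 0.00154, 3 pairs). From the first set to the second, the log2 level of Cox6a2 relative to Cox6a1 changed by -2.74. Cox7a1 relative to Cox7a2 changed by -2.94, and Cox8b relative to Cox8a by -5.82. Each pair had an exact p of 0.00154, also after Benjamini-Hochberg adjustment over the 3 pairs, was lower in 4 of 4 groups and did not overlap between the sets. The sets were already known to differ from earlier results of these data. Neither these p-values nor those from limma for the sets are therefore independent support for a difference. In WT-OVX, WT-E2-4hr, ERaKO-OVX and ERaKO-E2-4hr in turn, the Cox6a2 pair differed by -3.51, -2.14, -1.38 and -3.92, and the Cox7a1 pair by -3.69, -2.74, -1.75 and -3.59. The Cox8b pair differed by -6.84, -4.98, -4.38 and -7.10, with second-set signals of Cox8b of 10.6 to 176. Knockout bone with vehicle had the smallest shift of the 4 groups in all 3 pairs, and these differences between groups were not tested.

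**Figure D1:**
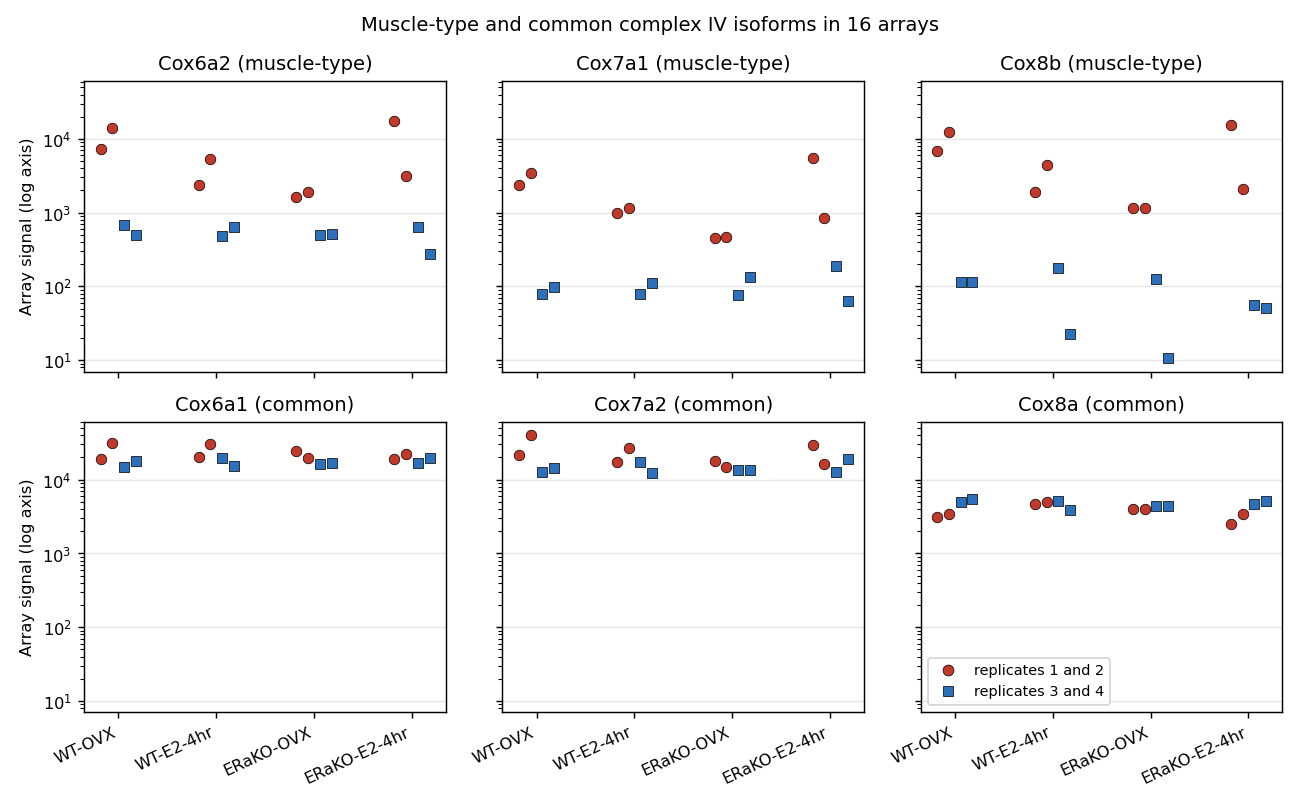
Array signal (log axis) of the 3 muscle-type complex IV isoforms (upper row) and their common partners (lower row) in the 4 groups, 1 point per mouse; red circles are replicates 1 and 2, blue squares replicates 3 and 4. All 8 red points of Cox6a2, Cox7a1 and Cox8b lie above all 8 blue points, and the points of the common partners overlap.

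The rest of the chain was lower in the second set as well, by far less. Of the 92 tested members, 50 passed as lower and 0 as higher by limma (59 and 2 at an unadjusted p under 0.05), against a background of 9.01% lower and 8.93% higher over all genes tested. The median difference was -0.44, against 0.03 for all genes. Leaving out the 3 muscle-type genes left 47 of 89 lower and a median of -0.43. In 9 of 92 members (9.78%) all 8 arrays of the second set lay below all 8 of the first, against 2.21% of all genes, and in 0 members above, against 1.33%. These 9 were the 3 muscle-type genes with Atp5e, Ndufc1, Ndufs7, Ndufa7, Ndufa1 and Uqcrb.

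Complex I, the entry point of NADH electrons, had 21 of 33 tested members lower and a median of -0.48. Ndufc1, a small accessory subunit, ran from 2621 to 7725 in the first set (median 3290) and from 1445 to 2061 in the second (median 1937), the largest difference of the complex at -1.07 ± 0.18 (adjusted p = 0.00066). Ndufa5, an accessory subunit of the matrix arm, ran from 2275 to 9687 and from 1786 to 2393 (adjusted p = 0.0075), and Ndufs7, which carries an iron-sulfur cluster, differed by -0.87 ± 0.17. Of the core subunits of the NADH-oxidizing arm, Ndufs1 differed by -0.44 ± 0.12 (adjusted p = 0.017) and Ndufv1, which binds the flavin, by -0.12 ± 0.09 (adjusted p = 0.38). The third, Ndufv2, differed by -0.62 ± 0.20 (adjusted p = 0.039), a call lost in 9 of the 16 fits that left out 1 array and after quantile normalization. Ndufb1 had the most positive difference, 0.12 ± 0.14, and Ndufa9 stood at 0.00 ± 0.10.

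Of complex II, succinate dehydrogenase, the catalytic flavoprotein Sdha (2683 to 3529 in the second set against 3228 to 6457) and the iron-sulfur subunit Sdhb passed as lower, at -0.52 ± 0.12 and -0.45 ± 0.15. The Sdhb call was lost in 11 of the 16 fits without 1 array, with array weights, with no filter and after quantile normalization. It was also lost without the 3 arrays of raised spike-in signal. The Sdha call was lost with the mean of its probe sets. The membrane anchors did not pass: Sdhc differed by -0.13 ± 0.13 and Sdhd by 0.15 ± 0.12. Complex III, which reduces cytochrome c, had 5 of 8 members lower and a median of -0.51. Uqcrb, a subunit of the quinone-binding part, ran from 18814 to 62328 in the first set and from 13573 to 18155 in the second, without overlap, and had the largest difference at -0.996 ± 0.19 (adjusted p = 0.0022). The core protein Uqcrc1 differed by -0.39 ± 0.10 (adjusted p = 0.014), whereas the Rieske iron-sulfur protein Uqcrfs1 differed by -0.12 ± 0.15 (adjusted p = 0.60).

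Complex IV, cytochrome c oxidase, had 12 of 18 members lower, and 9 of 15 with a median of -0.43 without the muscle-type forms. Cox4i1, Cox5a and Cox5b, the large nuclear-encoded subunits, passed at -0.43 ± 0.10, -0.59 ± 0.16 and -0.64 ± 0.13. The Cox5a call was lost after quantile normalization and the Cox5b call with the mean of its probe sets. Other tissue forms did not follow the muscle type. Cox4i2, the lung form of subunit IV, differed by 0.05 ± 0.15, and Cox6b2 and Cox8c, forms known from testis, by 0.18 ± 0.18 and -0.18 ± 0.16. Cox7a2l, which helps join complexes III and IV, differed by -0.27 ± 0.12 (adjusted p = 0.13). Cox7b2 had signals of 5.78 to 61.4 in the first set and 3.36 to 30.6 in the second and was not tested.

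The ATP synthase had 9 of 17 members lower and a median of -0.50. Atp5md, a small membrane subunit, ran from 1692 to 8987 in the first set and from 1143 to 2223 in the second (-1.33 ± 0.27, adjusted p = 0.0035). Atp5e, the epsilon subunit, ran from 4987 to 13232 and from 1944 to 3885 (-1.17 ± 0.19, adjusted p = 0.00058). The catalytic core did not pass: Atp5a1 (alpha) differed by -0.18 ± 0.12 and Atp5b (beta) by 0.02 ± 0.14. The 3 genes for the c-ring protein differed by -0.63 ± 0.19 for Atp5g1, which passed (adjusted p = 0.030) but not with the mean of its probe sets or in 6 of the 16 fits without 1 array, -0.07 ± 0.11 for Atp5g2 and -0.30 ± 0.11 for Atp5g3. Of the assembly factors, which help build complexes I and II and are not part of them, 1 of 12 passed, Sdhaf4 at -0.50 ± 0.16 (adjusted p = 0.043), and the median was -0.16. That share, 8.33%, is near the 9.01% of all genes tested that passed as lower. The Sdhaf4 call was lost in 11 of the 16 fits without 1 array, with array weights, with no filter and without the 3 arrays of raised spike-in signal. Sdhaf2, which attaches the flavin to Sdha, had the most positive difference at 0.22 ± 0.09 (adjusted p = 0.10).

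**Figure D2:**
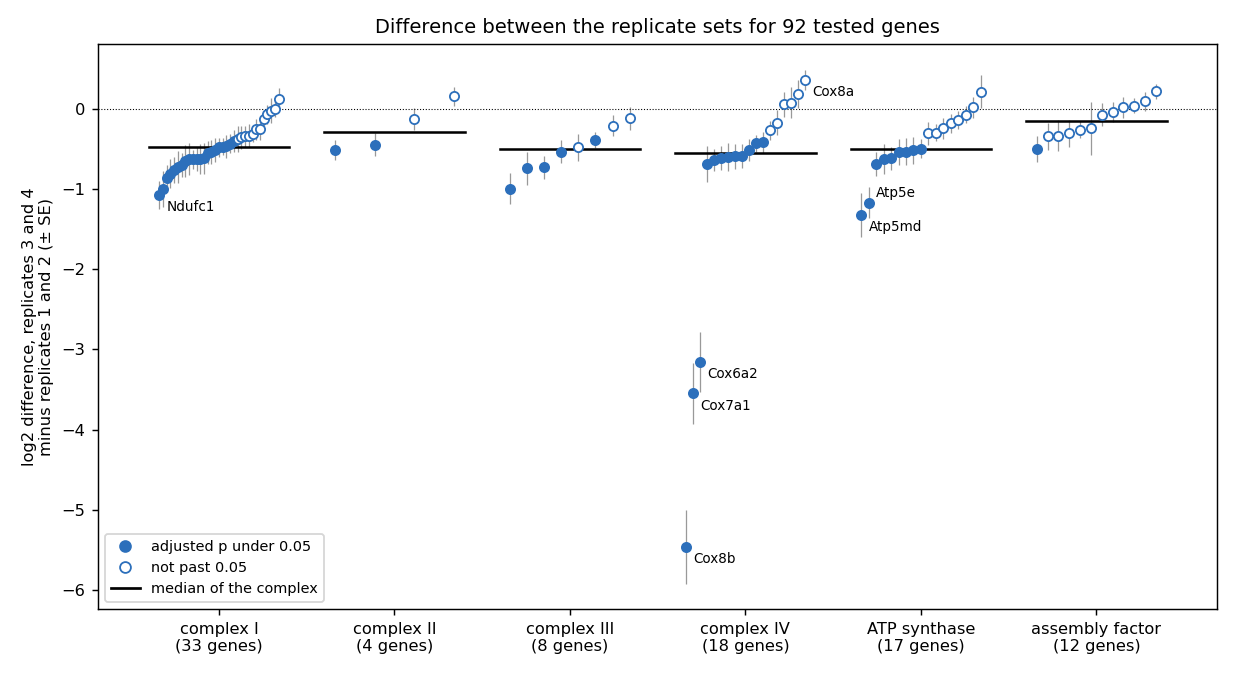
Difference between the replicate sets (log2, replicates 3 and 4 minus replicates 1 and 2, ± SE) for each of the 92 tested members by complex; filled points passed an adjusted p of 0.05 and black lines are medians. Cox8b, Cox7a1 and Cox6a2 stand at -5.46, -3.55 and -3.15, and the medians lie between -0.55 for complex IV and -0.16 for the assembly factors.

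Several of these calls rested on particular arrays or probe sets. Of the 50 calls, 32 were kept whichever single array was left out, and the count was 33 without WT-OVX replicate 3. It was 26 when the 3 arrays with raised spike-in signal were left out (WT-OVX replicate 2, WT-E2-4hr replicate 2 and ERaKO-E2-4hr replicate 1), 22 within wild type and 4 within knockout (Cox6a2, Cox7a1, Cox8b and Ndufa4l2), where fewer arrays entered. Among the 24 calls lost without the 3 arrays of raised spike-in signal were those of Ndufv2, Sdhb, Cox5a, Atp5g1 and Sdhaf4. After quantile normalization 14 of the 50 calls were lost, and with the mean of a gene's probe sets 10. The median of the members was -0.49 within wild type and -0.34 within knockout. The probe sets of a gene did not always move together: of 29 passing members with several probe sets above the filter, 8 had probe sets of opposite sign (Cox5b, Ndufa12, Ndufb2, Ndufb6, Ndufb8, Ndufc2, Ndufs8 and Sdha). For Sdha, the probe set used differed by -0.52 and another of similar mean signal, 3505 against 3647, by -0.03. For Ndufc2 the values were -0.55 and 0.12. Tested singly, 74 of the 185 member probe sets were lower and 0 higher. Of the 10 shared probe sets, 4 were lower, among them both of the Ndufb4 family.

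Muscle transcripts moved with this difference. All 22 of 22 skeletal muscle markers passed as lower in the second set, with a median of -3.92, and their summed signal was 114930 to 915648 in the first set against 5876 to 47542 in the second. None was listed at 0 on an array. Ckm, muscle creatine kinase, ran from 6383 to 65893 and from 201 to 2940. Single markers differed by -6.27 (Mb, myoglobin) to -1.30 (Tnnt1, slow troponin T), and the 3 muscle-type isoforms lay within that range. The second-set medians of Mb (26.3) and Myh7 (85.9) lay below the filter level. Both markers thus owed their place among the tested genes largely to the first set, which limits what their calls can show. Cox8b, at -5.46, lay within the range only through Mb, as the next marker was Myh1 at -5.05. Brown fat, the other main site of Cox8b and Cox7a1, had 2 of 6 markers above the filter and 0 that passed by limma (0 at an unadjusted p under 0.05), with summed signals of 575 to 1153 against 485 to 1027, and Ucp1, its defining gene, had 4.26 to 27.8 against 3.67 to 11.7. White fat markers were lower for 4 of 5 (median -1.32). Osteoclast markers were higher for 7 of 12 (median 0.81), and osteoblast and osteocyte markers for 4 of 9 with 1 lower. Marrow lists had 5 of 10 neutrophil, 1 of 5 erythroid and 1 of 7 B lymphocyte markers lower and 0 higher. Over all genes tested, 9.01% passed as lower and 8.93% as higher. In lists as short as the erythroid and B lymphocyte ones, 1 call cannot be told from that share. Array quality moved too: the 18S ribosomal RNA signal was 7798 to 30653 in the first set and 215 to 6608 in the second, the Actb 3′ to 5′ ratio 1.24 to 3.53 and 1.17 to 1.25, and the median spike-in signal 2532 to 17673 and 2101 to 2559. The part of each of these in the members' differences was not tested.

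Genes around the chain did not move as a block. Of the electron carriers and transporters, 6 of 13 were lower and 1 higher, where 9.01% and 8.93% of all genes tested were. The lower ones included muscle forms (Ckmt2, the muscle mitochondrial creatine kinase, at -4.57, and Slc25a4, the muscle ADP/ATP carrier, at -1.36) along with Cycs, cytochrome c, at -0.66. The higher one was Slc25a5, an ADP/ATP carrier of other tissues, at 0.61. In the tricarboxylic acid cycle list 3 of 17 were lower (Idh3b, Idh3g and Sucla2) and 0 higher, with a median of -0.20. A further list of assembly factors without the name stems had 1 of 25 lower (Uqcc2) and 2 higher (Cox18 and Acad9). These shares, 4.0% and 8.0%, are under those of all genes tested. The regulators of mitochondrial biogenesis had 0 of 14 in either direction by limma (1 higher and 1 lower at an unadjusted p under 0.05), with a median of 0.11. ND5, the 1 mitochondrially encoded subunit tested, was lower at -0.41 (adjusted p = 0.026).

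The array medians of the members followed those of the muscle markers in part. Relative to its mean over the 16 arrays, the median member stood at 0.76 in ERaKO-E2-4hr replicate 1, 0.56 in WT-OVX replicate 2 and 0.32 in WT-OVX replicate 1. The other 5 arrays of the first set lay between -0.12 and 0.18, and the 8 arrays of the second set between -0.33 and -0.01. The skeletal muscle markers stood at 3.69, 2.94 and 2.50 in the same 3 highest arrays. ERaKO-E2-4hr replicate 2 had the fourth highest muscle level, 2.01, with a member median of -0.07. ERaKO-E2-4hr replicate 4 had the lowest muscle level of the 16 arrays, -3.74, and the highest member median of the second set, -0.01.

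**Figure D3:**
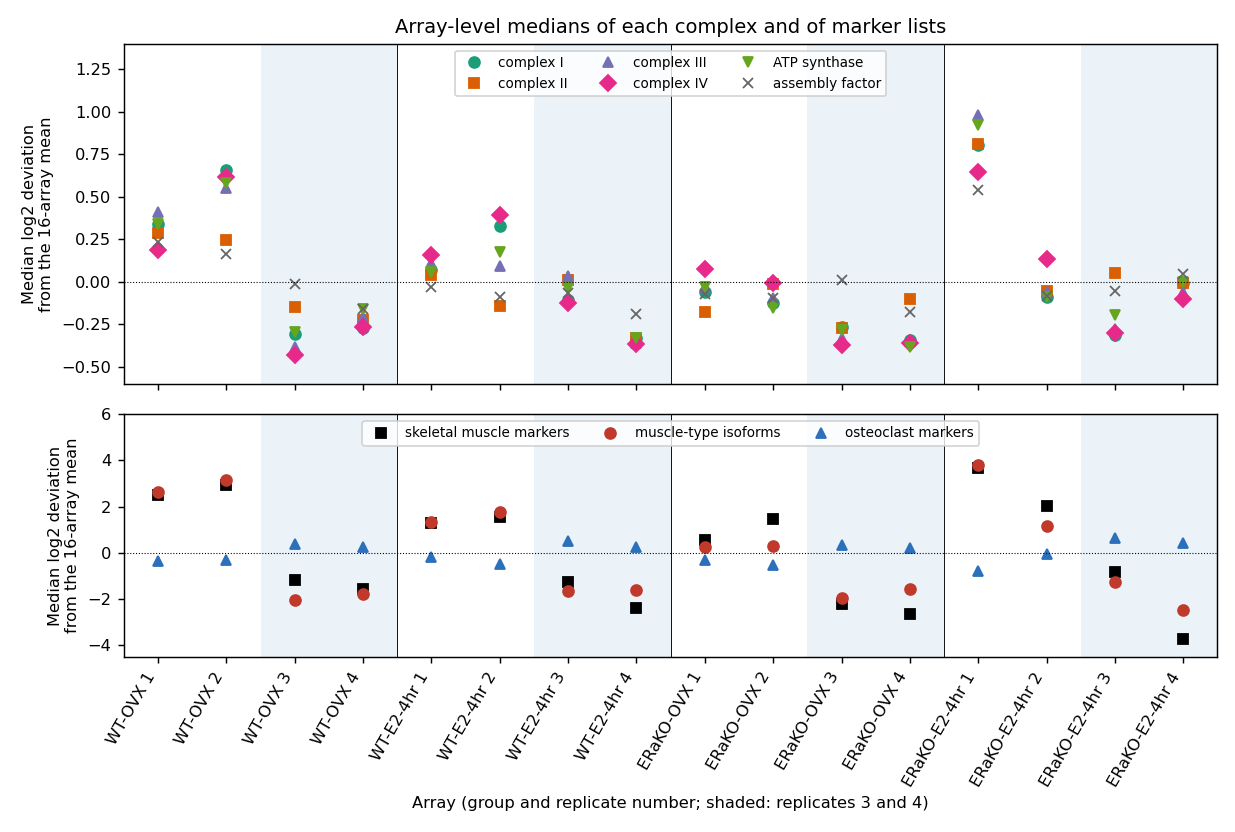
Median log2 deviation from the 16-array mean in each array, for the members by complex (upper panel) and for skeletal muscle markers, the muscle-type isoforms and osteoclast markers (lower panel); shaded columns are replicates 3 and 4. ERaKO-E2-4hr replicate 1 is the highest array for complex I at 0.81 and for the muscle markers at 3.69.

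Against this spread, no member passed the threshold for estrogen in either genotype. In wild-type bone 0 of 92 members passed by limma (background 0.0% in each direction), with 0 higher and 3 lower at an unadjusted p under 0.05, against 3.90% and 4.79% of all genes. In this comparison the median member differed by -0.16 and 20 of 92 were higher, where 47.9% of all genes were. The median was 0.19 with array weights and 0.03 without WT-OVX replicate 2, so its direction depended on these choices. The medians by complex ran from -0.19 for the ATP synthase to -0.11 for complex IV, and 0 of 8 members of complex III and 0 of 4 of complex II were higher. The 3 members below an unadjusted 0.05 were assembly factors, Sdhaf4 at -0.69 ± 0.29 (limma adjusted p = 0.52), Ndufaf4 at -0.40 ± 0.18 and Sdhaf2 at -0.38 ± 0.14. Sdhaf4 had signals of 1486, 1557, 909 and 951 in WT-OVX and 991, 947, 622 and 491 in WT-E2-4hr, so both replicate sets were lower with estrogen while the groups overlapped.

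The subunits with the most negative differences in wild type were Ndufa2 (-0.58 ± 0.37), Atp5e (-0.40 ± 0.49), Uqcr10 (-0.23 ± 0.27), Sdhb (-0.20 ± 0.26) and Cox8b (-1.14 ± 2.02). The most positive were Ndufb1 (0.19 ± 0.20), Cox8a (0.17 ± 0.22) and Atp5b (0.15 ± 0.19), and in complexes II and III Sdhd (-0.01 ± 0.18) and Uqcrc1 (-0.04 ± 0.20). Each of these SEs is near or above its difference, except that of Ndufa2.

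In knockout bone 0 of 92 members passed under estrogen (limma, background 0.0%), with 1 higher and 0 lower at an unadjusted p under 0.05, against 1.66% and 3.24% of all genes. The median was 0.31 and 87 of 92 were higher, where 51.4% of all genes were, including 33 of 33 in complex I, 8 of 8 in complex III and 17 of 17 in the ATP synthase. Members of 1 array are not independent, so these counts, like the sign counts of the other comparisons, are not separate observations. Ndufv2, an iron-sulfur subunit of complex I, had 0.57 ± 0.36, Uqcrb 0.51 ± 0.44, Atp5md 0.59 ± 0.60, Sdhb 0.34 ± 0.26 and Cox8b 1.24 ± 2.02. Cox6b2 had the most negative difference, -0.52 ± 0.26. Uqcrb had 22680, 18814, 13917 and 13573 in ERaKO-OVX and 48862, 23885, 15728 and 18155 in ERaKO-E2-4hr. Replicate 1 with estrogen stood far above the rest, and the other arrays of the groups overlapped. By replicate number, Uqcrb was higher with estrogen in 4 of 4 pairs, and so was the median member, by 0.78, 0.05, 0.02 and 0.30. In wild type the median member was lower in 3 of 4 pairs. The labels name no pairs, so these counts depend on matching mice by number. The median member stood at -0.07 in ERaKO-E2-4hr replicate 2 and at -0.02 in ERaKO-OVX replicate 1, which a match by number does not compare. Without ERaKO-E2-4hr replicate 1 the median of the members was 0.08.

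The values depended on the replicate set. Within the first set the median member differed with estrogen by -0.36 in wild type and 0.45 in knockout, and within the second by 0.08 and 0.15. The muscle-type isoforms had medians of -1.51 and 2.20 within the first set and -0.06 and 0.14 within the second. Over all mice, the skeletal muscle markers differed with estrogen by a median of -0.97 in wild type, where 1 of 22 was higher, and by 1.07 in knockout, where 21 of 22 were, and 0 passed in either by limma (0 at an unadjusted p under 0.05). Their summed signal ran from 24328 to 652166 in WT-OVX, 12812 to 255289 in WT-E2-4hr, 11072 to 202434 in ERaKO-OVX and 5876 to 915648 in ERaKO-E2-4hr. The tricarboxylic acid cycle list had medians of -0.11 and 0.36, with 17 of 17 higher in knockout. The part of the muscle markers in the members' differences was not tested.

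**Figure D4:**
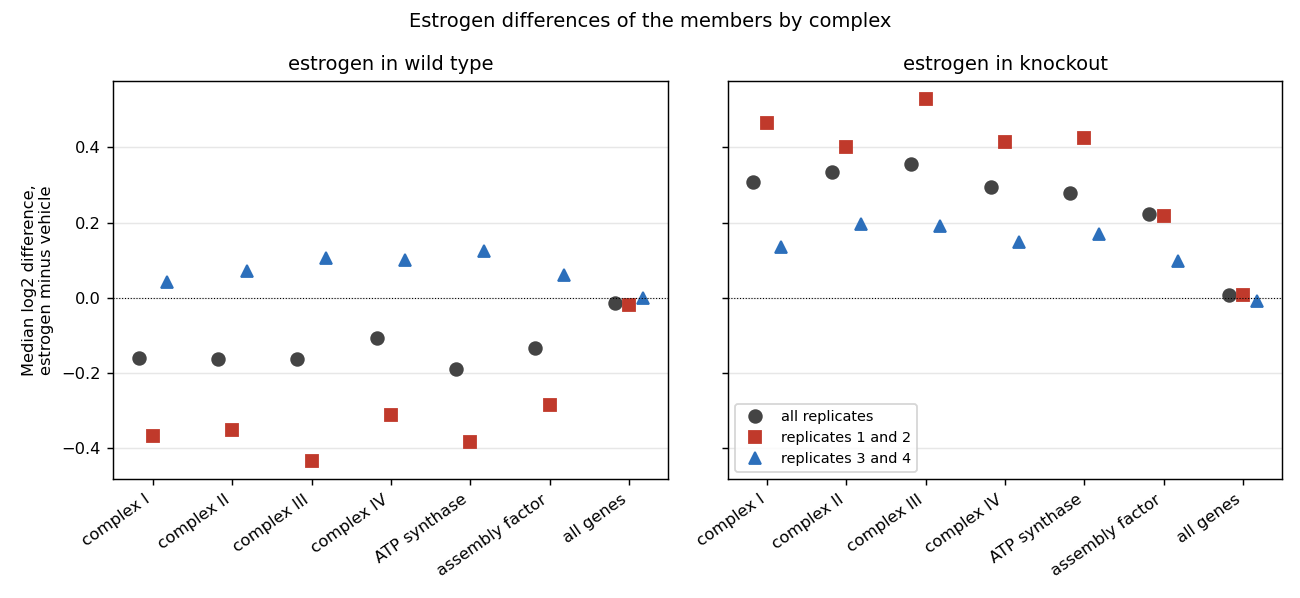
Median log2 difference, estrogen minus vehicle, of the members of each complex and of all genes tested, in wild type (left) and knockout (right), over all replicates and within each replicate set. Within replicates 1 and 2 the medians are negative in wild type and positive in knockout, and within replicates 3 and 4 those of the complexes and assembly factors lie between 0.04 and 0.19 in both genotypes.

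The difference between the estrogen responses, knockout minus wild type, was tested directly as the interaction. The 92 members gave 0 that passed (limma, background 0.0%), with 3 higher and 0 lower at an unadjusted p under 0.05, against 3.89% and 3.73% of all genes. The median was 0.48 and 84 of 92 were positive, against 51.1% of all genes. It was 0.84 within the first replicate set, 0.09 within the second, and 0.13 when the 3 arrays with raised spike-in signal were left out, and with array weights it turned to -0.087. The 3 members were again assembly factors: Sdhaf4 at 1.12 ± 0.41 (limma adjusted p = 0.64), Ndufaf4, which acts in complex I assembly, at 0.87 ± 0.25 and Ndufaf5 at 0.81 ± 0.36. Cox8b had 2.37 ± 2.86 and its partner Cox8a -0.31 ± 0.31.

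Knockout and wild type were compared under each treatment, in comparisons that share their arrays with those above. Under vehicle 0 of 92 members passed (background 0.0%), with 0 in each direction at an unadjusted p under 0.05 by limma, against 2.16% higher and 1.44% lower of all genes. The median was -0.29, and 7 of 92 were higher in knockout, where 50.4% of all genes were. Ndufv2 had -0.66 ± 0.36, Uqcrb -0.59 ± 0.44, Atp5md -0.81 ± 0.60 and Cox8b -2.05 ± 2.02, and on the other side Atp5b had 0.29 ± 0.19 and Cox6b2 0.47 ± 0.26. Within the first set the median was -0.50 and within the second -0.03. Under estrogen 0 of 92 passed (background 0.0%), with 5 higher and 0 lower at an unadjusted p under 0.05 by limma, against 3.59% and 3.16% of all genes: Sdhaf4, Ndufaf4, Ndufaf5, Ndufs5 and Sdhc. The median was 0.15, 75 of 92 were higher against 53.4% of all genes, and the median turned to -0.09 without ERaKO-E2-4hr replicate 1, -0.11 with array weights and -0.03 when the 3 arrays with raised spike-in signal were left out. Averaged over genotypes, the estrogen difference had a median of 0.09 with 0 of 92 passing (background 0.0157% higher), and averaged over treatments the genotype difference had a median of -0.08 with 0 of 92 passing (background 0.0%). At an unadjusted p under 0.05 the estrogen average had 0 members higher and 1 lower, against 2.47% and 3.67% of all genes, and the genotype average 0 in each direction, against 1.87% and 1.16%. The estrogen average turned to a median of -0.04 without ERaKO-E2-4hr replicate 1, and the genotype average to 0.01 without WT-OVX replicate 2 and 0.02 within the second replicate set.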

How the data were processed

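Signals are linear intensity values per probe set of a mouse whole-genome Affymetrix array, deposited by the authors. GCOS is named in the submitters' processing notes, without a version or background steps, and the values were used as deposited. Symbols came from the platform annotation, and all 94 members matched RefSeq. Where a gene had several probe sets, that of highest mean stood for it. Genes in the lowest 30% by mean (below about 109) were dropped. A model of log2(signal + 16) with 1 mean per group over 16 arrays was fitted in R 4.3.3 using limma 3.58.1 (variance trend, two-sided, Benjamini-Hochberg over 12735 genes, threshold 0.05); the comparison of replicate sets adds a set term. The scale understates the change of low genes, and precision is limited by the number of arrays. Nothing says that cage or litter mates were avoided, so p-values measure the spread between these mice.

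The members and lists were chosen with earlier results of these data known. Named by rule were the muscle-type isoforms and their partners, the other tissue forms and c-ring genes, the largest positive and negative difference of each complex and comparison, core subunits for the replicate sets, any passing member elsewhere, and passing members whose probe sets differ in sign. Others were chosen after their values were seen, such as members under an unadjusted 0.05 or without overlap. Ndufa4 and Ndufa4l2 were placed in complex IV.

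Groups share replicate numbers. All 24 correlations of same-numbered arrays' deviations from their group means were above 0.1 (0.178 to 0.593, median 0.314). The other number of the same set correlated as highly (median 0.354), so a match of mice by number is not established. The main fits were unpaired. Numbers served as pairs only in the differences by replicate number and in the replicate block alternative. Tested on simulated data of 12735 genes, the estrogen comparison in wild type recovered 73% of changes of 1 log2 unit and 97% of 2, with 9 false calls, and the set comparison 81% and 100%, with 13. The simulated spread was that left after the set term, without a set difference in the genes changed by estrogen. The estrogen shares are therefore too high for members that differ between the sets. Alternatives were the pseudocount, filter, quantile normalization, probe set choice, array weights, left-out arrays, replicate block, replicate set and fewer groups.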

Additional observations from a re-analysis of the deposited data

Results flagged for a closer look

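Of 96 groups of 4 arrays examined for the isoforms and core subunits, 5 held an array far from the other 3. Chance gives about 1 in 20, so the whole count is near the chance share. The genes of 1 array are not independent, however, and 4 of the 5 flags fell on 1 array. In ERaKO-E2-4hr, replicate 1 stood above the others for 4 genes. Atp5g1, a c-ring gene, had 6252 there and 2396 to 2674 in the others, and Sdhb had 7418 against 3374 to 3643. Uqcrfs1 had 6116 against 3007 to 3376, and Atp5a1 had 11738 against 7822 to 8300. In WT-OVX, replicate 2 had 7555 for Atp5g2 against 5299 to 5576.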

How the results depend on the processing

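With the replicate number as a block, 0 of 92 members passed in each of the 7 estrogen and genotype comparisons; the replicate block changed no call there, and 0 passed under all other alternatives. Between replicate sets, the count lower was 22 within wild type, 4 within knockout and 26 leaving out the arrays with raised spike-in signal, against 50; leaving out 1 array gave 33 to 54. The count higher was 2 with array weights, 1 with the filter at 50%, 2 with the mean of all probe sets and 1 after quantile normalization, and 0 to 2 with 1 array left out; these were Cox8a and Sdhaf2. Testing every probe set on its own, an alternative chosen after seeing the data, gave 74 of 185 probe sets lower. Cox6a1 reversed to 0.019 after quantile normalization. The medians moved beyond the spread of the arrays within groups (SD 0.32) to 0.19 with array weights for estrogen in wild type, and for the difference between the responses to -0.087 with array weights, 0.84 and 0.091 within the first and second set, and 0.13 leaving out the arrays with raised spike-in signal; the cause was not tested. Leaving out 1 array gave -0.30 to 0.03 and 0.23 to 0.58 for these medians. The isoform pairs kept their direction and exact p side under 21 alternatives each, with ranges of -3.50 to -2.29, -3.386 to -2.496 and -6.24 to -5.12.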
